A study of Mus musculus with 18 samples.

Results

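The genes described here are 34 genes of cholesterol and fatty acid synthesis, listed by name and matched to the gene symbols of the table without regard to case. Of the 34, 32 had a row in the table of 20298 genes; Nsdhl and Ebp, a pair of late sterol enzymes, were not analysed here. The 32 fell into 3 roles, with 16 enzymes of the mevalonate and sterol pathway, 6 genes of sterol sensing and SREBP control, and 10 enzymes of fatty acid synthesis, desaturation and elongation.

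Cells build cholesterol from acetyl-CoA through mevalonate, farnesyl diphosphate, squalene and lanosterol. They build fatty acids from the same acetyl-CoA through malonyl-CoA, and desaturases and elongases then shape the chains. Both pathways are switched on together by the SREBP transcription factors, which SCAP escorts out of the endoplasmic reticulum when membrane sterol is low and which the INSIG proteins hold back when it is high. Myeloid cells remodel this programme as they differentiate and when they are activated.

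Monocytes described as Ly6C+ CCR2+ came from mice labelled C57BL/6 (the DKI line is kept on C57BL/6J) that were wild type (WT) or DKI, the double knock-in whose STAT5A and STAT5B proteins pair into dimers but cannot assemble into tetramers. Libraries were made from untreated cells (day 0) and from cells cultured for 3 or 6 days in GM-CSF at 20 ng/mL, the cytokine that drives monocytes towards monocyte-derived dendritic cells and macrophages. Each of the 6 combinations of genotype and day had 3 RNA-seq libraries, 18 in all, from 3 independent experiments. Levels are RPKM, reads scaled to transcript length and to the mapped reads of the library, so that they can be set side by side between genes. The ages of the mice are not given in the sources used here, and every cell of a DKI mouse carries both altered alleles, in the mouse as in the dish. Monocytes were enriched by negative selection and not sorted, so each library is a mixture. The untreated cells were not kept in culture, so GM-CSF and time in serum-containing culture cannot be told apart.

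The depth recovered from the spacing of low values was 29.5 to 43.2 M reads per library, at which 3 reads on a 1 kb transcript come to 0.102 RPKM in the shallowest library. The labels name the tissue as liver, whereas the study design names bone marrow; the 7 hepatocyte markers summed to at most 0.634 RPKM in any library. The 5 monocyte markers summed to 1766 to 3210 RPKM in WT and to 2014 to 3123 RPKM in DKI libraries on day 0. The neutrophil list, 6 granule genes, also stood high there, at 1207 to 2906 RPKM over both genotypes. On days 3 and 6, libraries of replicate 1 carry another name prefix than all other libraries.

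On day 0 the sterol enzymes and the fatty acid enzymes were expressed at low to moderate levels and did not differ between genotypes by the test used. The 16 sterol enzymes together summed to 164, 119 and 156 RPKM in WT replicates 1 to 3 and to 170.4, 127 and 137 RPKM in DKI. The range among single genes was wide. Elovl5, which elongates polyunsaturated fatty acids, stood at 97.3, 63.6 and 60.8 RPKM in WT monocytes, whereas Scd1, a stearoyl-CoA desaturase, was nearly silent at 0.148, 0.264 and 0.159 RPKM. Of 28 members fitted, 0 passed the threshold (limma, Benjamini-Hochberg adjusted p under 0.05 and fold change over 1.5), 0 had an unadjusted p under 0.05, and the median log2 fold change of DKI against WT was -0.01. Across all 9179 genes fitted 0% were called in either direction, and 44 (0.479%) had an unadjusted p under 0.05. Same-numbered libraries of the genotypes deviated together on day 0 (r over all genes 0.686 to 0.865). This fit had no term for that and left the shared spread in its errors. With the replicate number as a block, 0% of genes were called as well.

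**Figure D1:**
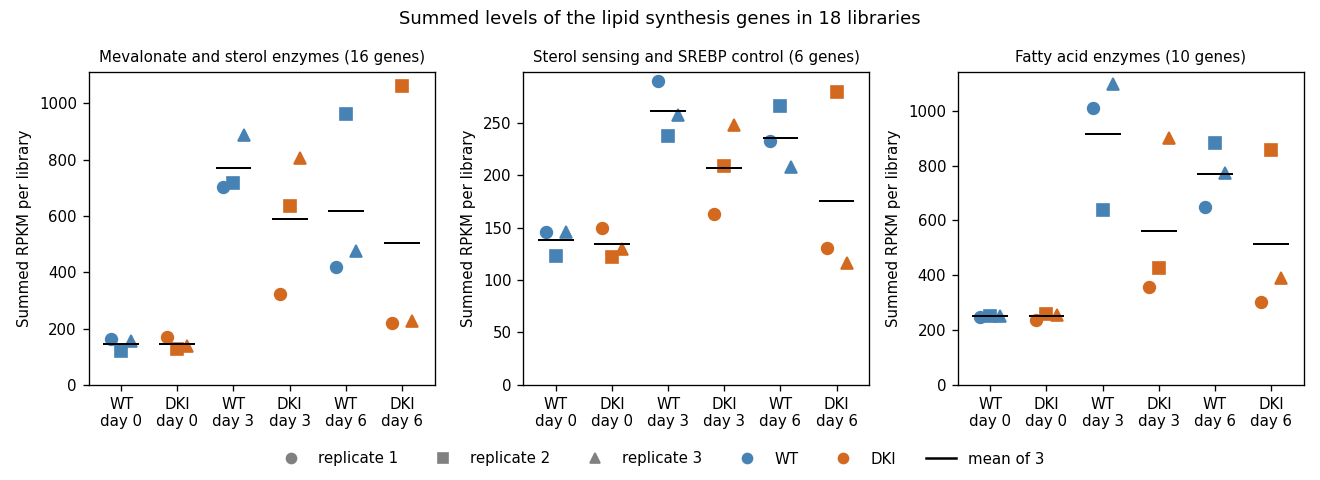
Summed RPKM of the sterol enzymes, the sterol sensing and SREBP control genes and the fatty acid enzymes in each of the 18 libraries (symbols mark replicates 1 to 3, blue WT, orange DKI, black bars the mean of 3). Both genotypes start level on day 0, rise on day 3, and spread widely on day 6, where the sterol enzymes of replicate 2 sum to 962 RPKM (WT) and 1062 RPKM (DKI).

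In WT cells nearly the whole programme was higher after 3 days of culture with GM-CSF. Of 32 members, 27 rose and 0 fell (limma, adjusted p under 0.05 and fold change over 1.5; 20.3% of the 9938 genes fitted were called higher and 22.8% lower). The median log2 fold change of the members was 2.11, against -0.05 over all genes fitted. All 16 sterol enzymes rose, as did 8 of the 10 fatty acid enzymes and 3 of the 6 control genes. Lss, Idi1, Scd1 and Fads2 had day 0 means under the filter limit of 2 RPKM (1.23, 0.726, 0.190 and 0.934 RPKM). They entered the fit only through day 3, so the direction of their change was fixed by the filter. Marker genes of cell states moved over the same days. In WT, 8 of 8 cell cycle, 3 of 5 monocyte and 2 of 6 neutrophil markers fell, as did the 1 marker fitted of each of the B cell, T and NK cell and erythroid lists. Of 6 dendritic cell markers, 4 rose and 1 fell, and of 6 macrophage markers 4 rose. In DKI, 7 of 8 cell cycle markers, 3 of 5 monocyte markers and the 1 T and NK cell marker fitted fell. Of 6 dendritic cell markers, 2 rose and 1 fell, of 6 neutrophil markers 1 rose and 1 fell, and 6 of 6 macrophage markers rose. Their part in the levels of the lipid genes was not tested.

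Lss, which entered only through day 3, and Sqle had the highest log2 fold changes among the 16 sterol enzymes. Sqle, squalene epoxidase, went from 8.52, 7.41 and 8.91 RPKM in the 3 WT libraries on day 0 to 80.3, 77.8 and 90.2 RPKM on day 3, with no overlap, a log2 fold change of 3.17 (SE 0.14, adjusted p = 1.93e-05). Lss, lanosterol synthase, closes squalene epoxide into the first sterol. It went from 1.13, 0.937 and 1.63 to 26.7, 27.6 and 39.2 RPKM, a log2 fold change of 3.84 (SE 0.21, adjusted p = 4.95e-05). At the entry, Acat2, which condenses acetyl-CoA, and Hmgcs1, which makes HMG-CoA, rose by 2.69 and 2.33 (adjusted p = 0.000301 and 0.000163). Mvk, mevalonate kinase, rose by 2.65 (adjusted p = 0.000388), and Pmvk and Mvd, which follow it, by 2.10 and 2.08 (adjusted p = 0.000174 and 0.000303).

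The post-squalene enzymes rose as well. Tm7sf2, a sterol reductase, rose by 2.57 and Cyp51, the lanosterol demethylase, by 2.27 (adjusted p = 0.000248 and 0.000116). Msmo1, the methylsterol oxidase and the sterol enzyme with the highest mean level, stood at 52.5, 19.3 and 19.4 RPKM on day 0 and 121, 122 and 155 RPKM on day 3, a log2 fold change of 2.24 (SE 0.38, adjusted p = 0.00344). Idi1, the isopentenyl diphosphate isomerase, was low at 0.788, 0.684 and 0.707 RPKM on day 0, and its rise of 1.34 (SE 0.19, adjusted p = 0.00180) is understated by the added 1, since its mean on day 3 was 4.69 times that on day 0. Fdft1, squalene synthase, rose by 2.13 (adjusted p = 0.000866), but its span overlaps that of Ctsb by 774 bases in RefSeq, and with the strand setting of the counting not stated, reads there cannot be assigned with certainty. Overlaps of 9 to 114 bases were found for Tm7sf2, Srebf1, Acaca and Elovl1.

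The desaturases Scd1, Scd2 and Fads2 had the highest log2 fold changes of all members, where Scd1 and Fads2 entered only through day 3. Scd2 went from 8.56, 8.97 and 14.6 RPKM in WT day 0 libraries to 346, 179.9 and 489 RPKM on day 3, a log2 fold change of 4.78 (SE 0.38, adjusted p = 0.000212). Scd1, its neighbour on chromosome 19 (Scd2 at chr19:44293676-44306864, Scd1 at chr19:44394450-44407709, mm10), reached 35.8, 13.8 and 83.2 RPKM, a log2 fold change of 4.91 (SE 0.57, adjusted p = 0.000833). These paralogs are alike in sequence, so the split of reads between them is uncertain. Fads2, the delta-6 desaturase that starts polyunsaturated fatty acid synthesis, went from 0.394, 1.35 and 1.06 to 60.5, 26.9 and 61.7 RPKM, a log2 fold change of 4.65 (SE 0.36, adjusted p = 0.000188). Fads1, the delta-5 desaturase that follows it (Fads2 at chr19:10062765-10101503, Fads1 at chr19:10182877-10196874), rose by 2.53 (SE 0.26, adjusted p = 0.000558).

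The bulk fatty acid enzymes rose less evenly in WT cells. Fasn, fatty acid synthase, rose by 2.54 (adjusted p = 0.000778), whereas Acly, ATP citrate lyase, and Acaca, acetyl-CoA carboxylase, rose by 0.84 and 0.81 (adjusted p = 0.0174 and 0.00740). Elovl5 rose by 1.01 (SE 0.22, adjusted p = 0.00920). Elovl1, at 0.55 (adjusted p = 0.0174), missed the fold change limit, and Elovl6, at 0.61 (adjusted p = 0.191), missed the p limit.

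Among the control genes, Stard4, a carrier of sterol between membranes, rose by 1.75 (adjusted p = 0.000281). Srebf2, which encodes the SREBP most tied to cholesterol synthesis, went from 61.5, 51.3 and 49.4 to 151, 106 and 118 RPKM, a log2 fold change of 1.18 (SE 0.18, adjusted p = 0.00223). Scap rose by 0.79 (SE 0.17, adjusted p = 0.00975). The SREBP brakes Insig1 and Insig2, at 0.18 and 0.57, and Srebf1, the SREBP gene tied to fatty acid synthesis, at 0.42, were not called (adjusted p = 0.561, 0.0514 and 0.125). The level of Srebf1 was 0.370 to 0.429 times that of Srebf2 in WT libraries on day 0 and 0.230 to 0.241 times on day 3.

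In DKI cells most sterol enzymes and 4 of 10 fatty acid enzymes rose between day 0 and day 3. Of 31 members fitted, 19 rose and 0 fell (13.1% of 9922 genes were called higher and 21.1% lower), and the median log2 fold change was 1.59, against -0.16 over all genes fitted. The 19 were 13 of 15 sterol enzymes fitted, Stard4 and Insig2 among 6 control genes, and Fasn, Scd2, Fads1 and Fads2 among 10 fatty acid enzymes. The mean of Idi1 was below the limit of 2 RPKM in both DKI groups and was not fitted. Lss, Scd1 and Fads2 were under that limit on day 0 (means 1.11, 0.267 and 1.40 RPKM) and entered only through day 3. With the libraries centred on their medians, 1743 genes were called higher and 1622 lower in DKI, against 1297 and 2097 without centring; the all-gene median moved from -0.16 to 0.01 and the members' median to 1.76, with 23 members called higher.

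The count in DKI cells depended on which cultures entered. It was 3 without replicate 2 in both groups (3.43% of genes called higher), 10 without replicate 3 (4.64%) and 24 without replicate 1 (13.7%), with 0 members lower in each. The 3 called without replicate 2 were Mvk, Lss and Fads1, named after their values were seen.

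Sqle went from 10.2, 8.21 and 6.97 RPKM in DKI day 0 libraries to 21.2, 80.2 and 77.6 RPKM on day 3, with replicate 1 far below the other cultures (log2 fold change 2.48, SE 0.51, adjusted p = 0.0125). Lss rose by 3.25 (SE 0.40, adjusted p = 0.00296), Scd2 by 3.60 (SE 0.59, adjusted p = 0.00647) and Fads2 by 3.64 (SE 0.57, adjusted p = 0.00592). Fads1 had the smallest error among these, with 5.13, 3.84 and 4.01 RPKM on day 0, 45.2, 34.3 and 50.3 RPKM on day 3 and a log2 fold change of 3.05 (SE 0.20, adjusted p = 0.000580). Scd1 reached 5.09, 2.08 and 58.5 RPKM in the 3 DKI cultures and was not called (log2 fold change 3.04, SE 1.01, adjusted p = 0.0563). Elovl5 stood at 87.5, 74.4 and 66.3 RPKM on day 0 and 40.0, 52.6 and 73.7 RPKM on day 3 in DKI (log2 fold change -0.48, SE 0.26, adjusted p = 0.179), and Scap at 8.97, 9.51 and 10.7 and 7.03, 10.6 and 9.60 RPKM (log2 fold change -0.10, adjusted p = 0.690).

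The difference between genotypes in the change from day 0 to day 3 was tested as an interaction in 12 libraries. A single member passed, Elovl5, at -1.49 (SE 0.35, adjusted p = 0.0482), where 1.7% of 10212 genes were called lower and 1.2% higher. The members' median was -0.56, against -0.11 over all genes, and 28 of 32 were below 0. Without replicate 1 in both genotypes the members' median was -0.22 with 20 below 0, and without DKI replicate 1 of day 3 alone it was -0.20 with 23 below 0 (-0.03 over all genes in each). With the replicate number as a block the adjusted p of Elovl5 was 0.0636, and Acat2 passed instead at 0.0404, with 2.3% of genes called lower (without the block -1.55, adjusted p = 0.153). Over 21 alternatives, single libraries left out included, the adjusted p of Elovl5 ran from 0.0228 to 0.497 and its log2 difference from -1.76 to -1.28.

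**Figure D2:**
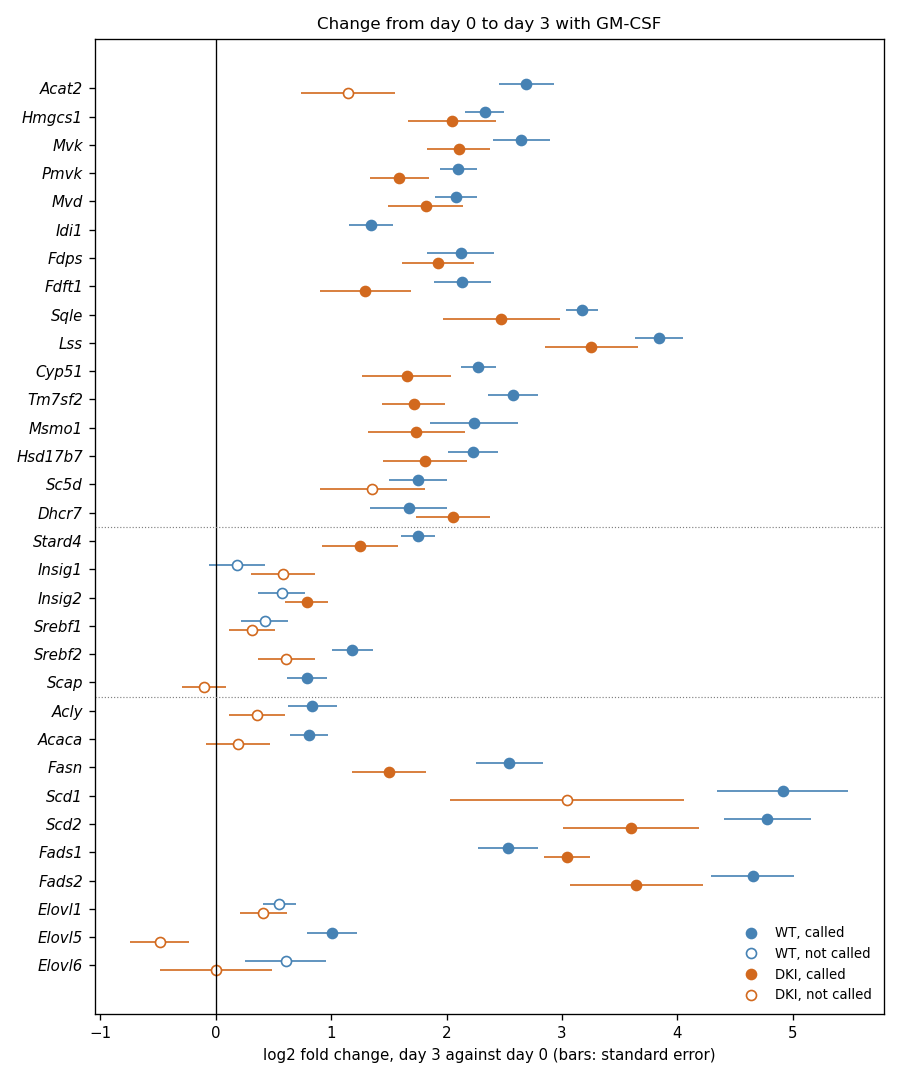
Log2 fold change from day 0 to day 3 for each member in WT (blue) and DKI (orange) cells, on log2(RPKM + 1), with bars for the standard error and filled points for members that passed the test; dotted lines part the 3 roles, and Idi1 has no DKI point because it was not fitted. WT points lie to the right of 0 for all 32 members, and Elovl5 is the member with a rise of 1.01 in WT beside -0.48 in DKI.

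The stretch just upstream of the start site is shown for Hmgcs1, Srebf2 and Msmo1, the members in whose window the core of the sterol regulatory element was found, and for Elovl5, the member called between genotypes on both culture days. The stretches are 250 bases before the annotated start, in the gene's own direction, from RefSeq on GRCm38.p6 (mm10). Capitals mark the element core TCACNCCA and the CCAAT box, the site of the factor NF-Y that works beside SREBP, on either strand.
Hmgcs1 (chr13:119690101-119690350, plus strand): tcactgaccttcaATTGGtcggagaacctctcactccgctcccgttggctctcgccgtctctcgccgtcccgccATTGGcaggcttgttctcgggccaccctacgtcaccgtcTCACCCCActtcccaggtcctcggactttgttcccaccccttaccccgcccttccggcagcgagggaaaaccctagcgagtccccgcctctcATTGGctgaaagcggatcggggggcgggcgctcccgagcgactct
Srebf2 (chr15:82147019-82147268, plus strand): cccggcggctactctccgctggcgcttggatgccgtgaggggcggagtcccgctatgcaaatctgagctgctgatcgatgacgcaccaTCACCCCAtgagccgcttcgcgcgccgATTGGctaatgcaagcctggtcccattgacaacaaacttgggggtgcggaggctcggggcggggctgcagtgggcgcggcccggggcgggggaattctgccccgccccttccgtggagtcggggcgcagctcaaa
Msmo1 (chr8:64733579-64733828, minus strand): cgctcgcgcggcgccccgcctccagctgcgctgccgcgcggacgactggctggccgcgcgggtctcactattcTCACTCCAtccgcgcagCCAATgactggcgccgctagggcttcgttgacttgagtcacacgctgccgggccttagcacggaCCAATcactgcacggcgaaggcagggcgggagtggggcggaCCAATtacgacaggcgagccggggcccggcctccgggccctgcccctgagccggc
Elovl5 (chr9:77917115-77917364, plus strand): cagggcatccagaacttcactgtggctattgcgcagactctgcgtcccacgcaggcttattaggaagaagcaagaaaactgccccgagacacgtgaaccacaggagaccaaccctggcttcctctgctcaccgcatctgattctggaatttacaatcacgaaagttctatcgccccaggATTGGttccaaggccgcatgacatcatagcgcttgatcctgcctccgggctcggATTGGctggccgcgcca

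In these sequences the element core begins 137 bases before the start in Hmgcs1, 162 in Srebf2 and 177 in Msmo1. Hmgcs1 and Msmo1 hold 3 CCAAT boxes each, Elovl5 holds 2 and Srebf2 holds 1. RefSeq windows of 300 bases, 250 before and 50 after the start, were matched for 25 of the 32 members; the others were Fdps, Fdft1, Sqle, Stard4, Scd1, Scd2 and Fads1. The core TCACNCCA, read on both strands, lay in 3 of the 25 windows, 12% against 4.81% of the 15376 genes with a window. CCAAT lay in 20 of the 25, 80% against 41.9%, among them 12 of 13 sterol enzymes. The GC box GGGCGG also lay in 20 of the 25, against 52.6%. TTCNNNGAA, the letters of the GAS motif that STAT5 dimers recognise, lay in 0 of the 25 windows and in 9.09% of all windows; these are counts of letters in a short window and carry no claim about binding.

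Between genotypes on day 3, 2 members were lower in DKI than in WT cells and 0 were higher (4.21% of 9740 genes were called lower and 3.21% higher). They were Elovl5 and Scap. Across the 32 members the median log2 fold change of DKI against WT was -0.61, against -0.11 over all genes fitted. Of the members 28 were below 0, as were 5984 of all 9740 genes. Without DKI replicate 1 the members' median was -0.19, against -0.03 over all genes, and without replicate 1 in both genotypes it was -0.21, against -0.04, with 25 of 32 below 0 in each. The libraries of the genotypes did not overlap for 8 of 32 members, all lower in DKI (22.9% of all genes), namely Acat2, Mvk, Idi1, Fdft1 and Tm7sf2 among sterol enzymes, Srebf2 and Scap among control genes, and Elovl5. Idi1 entered this fit only through WT, with a mean of 3.41 RPKM against 1.84 RPKM in DKI, so its direction was fixed by the filter. In bulk libraries, fewer cells that express a gene and less RNA of it per cell cannot be told apart.

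Elovl5 (chr9:77917365-77984519, mm10) measured 171, 138 and 132 RPKM across WT cultures, against 40.0, 52.6 and 73.7 RPKM across DKI cultures on day 3, a ratio of means of 0.377. Every DKI culture lay below every WT culture. The log2 fold change was -1.42 (SE 0.25, adjusted p = 0.0274). Scap (chr9:110333288-110384949) measured 20.8, 16.8 and 15.8 RPKM across WT cultures, against 7.03, 10.6 and 9.60 RPKM across DKI cultures, a log2 fold change of -0.91 (SE 0.19, adjusted p = 0.0412).

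With the replicate number as a block, neither passed on day 3 (adjusted p = 0.0658 for Elovl5 and 0.0882 for Scap), and Acat2 was called lower at 0.0453 (2.96% of genes were called lower with the block). Acat2 measured 20.4, 32.1 and 31.8 RPKM across WT cultures, against 4.47, 10.9 and 16.2 RPKM across DKI cultures, and without the block its log2 fold change of -1.46 (SE 0.43) had an adjusted p of 0.0961. Leaving out any WT library, DKI replicate 2 or any replicate number in both genotypes left 0 members called lower. Calls over all genes fell in the same fits, from 410 lower to 107, 129 and 122 without WT replicate 1, 2 or 3, to 192 without DKI replicate 2, to 206 without replicate 1 in both genotypes and to 0 without replicate 2 or 3 in both. Without DKI replicate 1, Elovl5 and Scap were called lower, and without DKI replicate 3, Elovl5 was.

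Of the 16 sterol enzymes, 15 were below 0 in DKI against WT on day 3, as were 5984 of all 9740 genes. Of the 16, 0 passed and 3 had an unadjusted p under 0.05 (18.75%, against 26.5% of all genes fitted). Srebf2 measured 151, 106 and 118 RPKM across WT cultures, against 62.3, 84.8 and 91.2 RPKM across DKI cultures (log2 fold change -0.65, SE 0.22, adjusted p = 0.132). Msmo1 differed by -0.26 (SE 0.29, adjusted p = 0.603) and Scd2 by -1.12 (SE 0.67, adjusted p = 0.338). The 4 members above 0 were Fads1 at 0.55, Insig1 at 0.33, Dhcr7, the last reductase of cholesterol synthesis, at 0.21, and Insig2 at 0.11, with adjusted p between 0.267 and 0.768. Fads1 was higher in DKI in 3 of 3 same-numbered pairs on day 3, with 35.2, 19.4 and 35.1 RPKM across WT cultures, against 45.2, 34.3 and 50.3 RPKM across DKI cultures. Its level was 0.570 to 0.723 times that of Fads2 in WT cultures and 0.729 to 3.42 times in DKI cultures that day.

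On day 6, Elovl5 was the only member called between genotypes, lower in DKI (4.82% of 9842 genes were called lower and 2.72% higher). It measured 129, 129.9 and 118 RPKM across WT cultures, against 37.6, 77.2 and 55.3 RPKM across DKI cultures, a ratio of means of 0.452 with no overlap between genotypes. The log2 fold change was -1.19 (SE 0.27, adjusted p = 0.0492). That p lay at the threshold and passed it no longer with the replicate number as a block (0.0572), with median centring (0.0590) or with quantile normalization (0.0665). The members' median was -0.78, against -0.17 over all genes, and 27 of 32 were below 0, as were 6548 of all 9842 genes. The genotypes did not overlap for 3 members, Scap, Acaca and Elovl5, all lower in DKI (26.6% of all genes). The size of the members' median, but not its sign, depended on single cultures. This median was -0.39 without DKI replicate 1 or DKI replicate 3, -0.45 without WT replicate 2 and -1.41 without DKI replicate 2. Without WT replicate 1 it was -0.90, and without WT replicate 3 it was -0.85. With a replicate number left out in both genotypes it was -0.57 (replicate 1), -1.20 (replicate 2) and -0.50 (replicate 3). In these fits 25 to 30 members were below 0.

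Centring moved the all-gene median on day 6 from -0.17 to -0.02 and the members' median to -0.63, and turned the calls over all genes from 268 higher and 474 lower to 323 higher and 285 lower. Scap measured 22.2, 18.5 and 14.4 RPKM across WT cultures, against 11.5, 14.1 and 8.18 RPKM across DKI cultures on day 6 and was not called (log2 fold change -0.67, SE 0.24, adjusted p = 0.131).

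**Figure D3:**
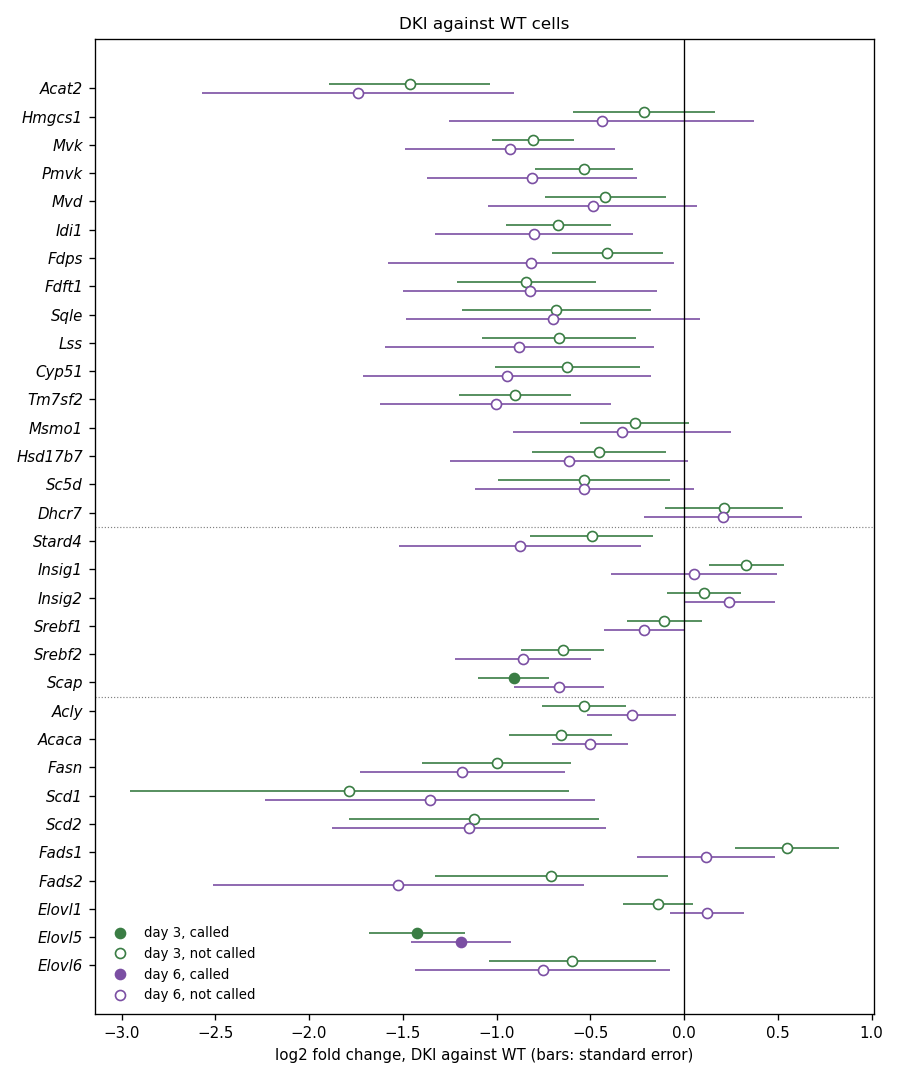
Log2 fold change of DKI against WT for each member on day 3 (green) and day 6 (purple), on log2(RPKM + 1), with bars for the standard error and filled points for members that passed the test. Most points lie left of 0, the errors are wider on day 6 for 30 of 32 members (all but Acaca and Scd1), and Elovl5 is filled on both days and Scap on day 3.

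The members moved together from culture to culture, most widely on day 6. In replicate 2 of day 6 the level was the highest of 3 cultures in both genotypes for 29 of 32 members, including 16 of 16 sterol enzymes, against 25.2% of 9842 genes. In DKI cultures it was the highest for all 32 members, against 45.6% of 9378 genes. The exceptions in WT were Srebf2 and Scap, highest in replicate 1, and Scd1, highest in replicate 3.

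Sqle shows the size of this. It stood at 47.4, 104 and 45.2 RPKM in WT replicates 1 to 3 and at 16.0, 131 and 23.5 RPKM in DKI. Cyp51 measured 35.0, 82.0 and 43.2 RPKM across WT cultures, against 14.4, 90.1 and 12.2 RPKM across DKI cultures, and Hmgcs1 stood at 56.2, 166 and 71.0 and 26.9, 223 and 43.2 RPKM. In each, DKI replicate 2 stood above all WT cultures, while DKI replicates 1 and 3 stood below them. Over the 16 sterol enzymes the median ratio of replicate 2 to the mean of the other cultures was 2.08 in WT and 5.39 in DKI, against 1.05 and 1.09 over all genes above 2 RPKM.

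The low culture of day 3 was DKI replicate 1, the lowest of 3 for 16 of 16 sterol enzymes and 28 of 32 members, against 59.5% of 9381 genes. Its sterol enzymes stood at a median of 0.397 times the mean of the other DKI cultures, against 0.838 over all genes. The fatty acid enzymes spread on day 3 too. Scd2 measured 346, 179.9 and 489 RPKM across WT cultures, against 77.3, 98.9 and 381 RPKM across DKI cultures, with replicate 3 the highest in each genotype. The lowest WT culture for 8 of the 10 fatty acid enzymes (25.4% of 9338 genes) was replicate 2, whose 6 neutrophil markers summed to 2931 RPKM, against 190.0 and 440.2 RPKM in WT replicates 1 and 3; their part in these levels was not tested.

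The difference between genotypes varied from pair to pair of same-numbered cultures. For the 16 sterol enzymes the median log2 difference of DKI minus WT on day 3 was -1.10 in replicate 1, -0.30 in replicate 2 and -0.23 in replicate 3, against -0.27, -0.09 and 0.01 over all genes fitted. On day 6 it was -0.85 in replicate 1, 0.03 in replicate 2 and -1.42 in replicate 3, against -0.18, -0.11 and -0.22 over all genes. All 16 sterol enzymes were below 0 in replicate 1 on both days, as were 6369 of 9740 genes on day 3 and 6355 of 9842 on day 6. In replicate 2 of day 6 only 7 were, against 6379 of 9842 genes. Across both days 12 of 32 members were below 0 in all 3 pairs, 37.5% against 29.5% of the 9597 genes fitted on both days. The 12 included Elovl5, Scap, Srebf2, Acat2, Lss, Acaca and Fasn. Idi1, also among them, entered on both days only through WT.

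**Figure D4:**
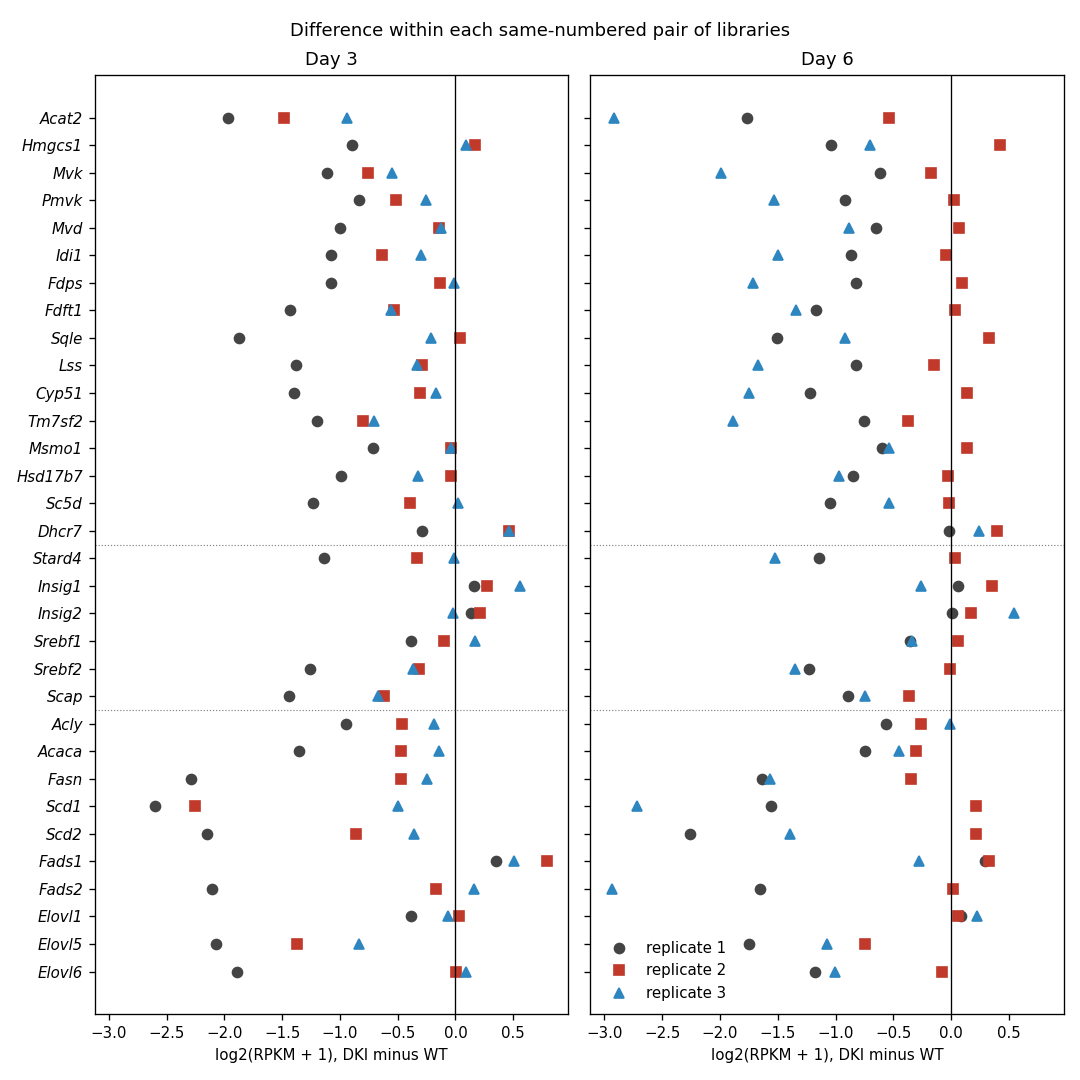
Difference in log2(RPKM + 1), DKI minus WT, for each member within each pair of libraries of the same replicate number, on day 3 (left) and day 6 (right); dotted lines part the 3 roles. On day 6 the points of replicate 2 gather near 0, with a median of 0.03 over the sterol enzymes, while those of replicates 1 and 3 lie at medians of -0.85 and -1.42.

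Without DKI replicate 2 on day 6, 8 members were called lower in DKI in place of 1 (6.66% of all genes). They were Acat2 at -2.70 (SE 0.43, adjusted p = 0.0246), Fads2 at -2.68, Cyp51 at -1.84, Fasn at -1.77, Stard4 at -1.63, Pmvk at -1.45, Elovl5 at -1.44 and Srebf2 at -1.25, with adjusted p between 0.0233 and 0.0409. Without replicate 2 in both genotypes 4 were called lower (3.08% of all genes), Acat2, Fads2, Cyp51 and Stard4, and Elovl5 was not. Leaving out any other library, or replicate 1 or 3 in both genotypes, left 0 members called. Over all genes, lower calls fell from 474 to 68, 355 and 76 without WT replicate 1, 2 or 3, to 132 and 63 without DKI replicate 1 or 3, and to 12 and 0 without replicate 1 or 3 in both.

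From day 3 to day 6, 0 members and 0% of genes were called in either genotype, by limma on 6 libraries each. In WT, 722 of 9613 genes and 1 member had an unadjusted p under 0.05, and in DKI 93 of 9540 genes and 0 members. The members' median log2 change was -0.24 in WT and -0.40 in DKI, against -0.03 and -0.07 over all genes, with 29 and 26 members below 0. In WT it was -0.60 without replicate 2 (32 below 0), -0.51 without replicate 2 of day 6 alone, -0.14 without replicate 3 and -0.10 without replicate 1 (23 below 0). In DKI it was -1.04 without replicate 2 and 0.15 without replicate 3, with 6 members below 0. With single DKI libraries left out it was -1.07, -0.18 and -0.10 without replicate 2, 1 or 3 of day 6, and -0.73 and -0.19 without replicate 1 or 3 of day 3. Elovl5 changed by -0.22 in WT (adjusted p = 0.724) and 0.02 in DKI (adjusted p = 0.999). Fads2 changed by -1.01 in DKI with an SE of 1.09, from 13.2, 23.8 and 68.9 RPKM on day 3 to 8.03, 70.7 and 3.66 RPKM on day 6. The interaction of genotype with this interval gave 0% of 9985 genes, of which 89 had an unadjusted p under 0.05, with 0 members among those.

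**Figure D5:**
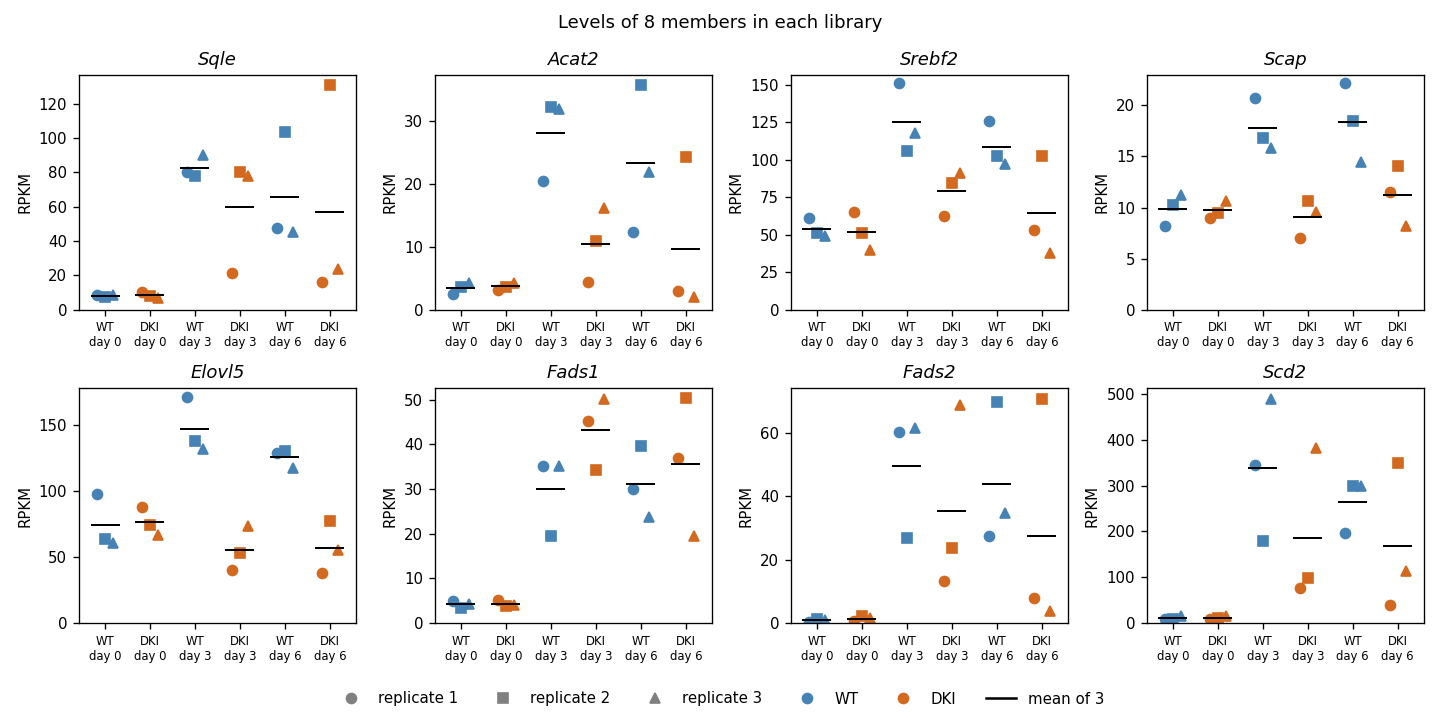
RPKM of 8 members in each of the 18 libraries, by genotype and day (symbols mark replicates 1 to 3, blue WT, orange DKI, black bars the mean of 3). Elovl5 in DKI lies below WT on days 3 and 6 in every culture, whereas Sqle, Fads2 and Scd2 in DKI spread over most of the WT range or beyond it.

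Other genes of lipid handling, from 6 lists, moved in part the other way between genotypes. Of the 7 fitted genes of sterol uptake, esterification and oxysterol synthesis, 7 were above 0 in DKI on both days. Over all genes 3756 of 9740 were above 0 on day 3 and 3294 of 9842 on day 6. The uptake genes had medians of 0.58 on day 3 and 0.90 on day 6. Among them 1 passed on day 3, Npc1, which releases cholesterol from lysosomes, at 0.85 (SE 0.15, limma adjusted p = 0.0277). Of 7 fitted genes of the LXR pathway and sterol export, 2 were higher in DKI on day 3, Nr1h3, which encodes the oxysterol receptor LXR alpha, at 2.23 (SE 0.46, adjusted p = 0.0393), and its partner Rxra at 0.71 (SE 0.15, adjusted p = 0.0452). Por, the electron donor of Cyp51 and Sqle, was the 1 of 10 genes of the isoprenoid branch and sterol cofactors that passed, at 0.89 (SE 0.19, adjusted p = 0.0422). These 4 calls stand beside 3.21% of all genes called higher that day, and without replicate 2 or replicate 3 in both genotypes 0 genes of any kind were called by limma. On day 3, 0 of 7 genes of SREBP processing and turnover, 0 of 12 of fatty acid supply and activation and 0 of 10 of triglyceride and phospholipid assembly were called, with 0, 1 and 3 of them at an unadjusted p under 0.05 (26.5% of all genes). On day 6, 0 genes of the 6 lists were called by limma, and 28.2% of all genes had an unadjusted p under 0.05. The same held for 5 of 7 uptake genes, 2 of 7 LXR genes, 2 of 9 isoprenoid and cofactor genes, 2 of 10 assembly genes, 1 of 7 SREBP processing genes and 0 of 11 fatty acid supply genes.

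From day 0 to day 3, 7 of 12 genes of fatty acid supply and activation rose in WT and 5 of 11 in DKI, with 0 falling in either (20.3% and 13.1% of all genes were called higher). Of 7 genes that process or turn over SREBP, 3 fell in each genotype, Ubxn8, Gps2 and Sirt1, and 0 rose (22.8% and 21.1% of all genes were called lower).

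Markers of other cell states moved with the genotype as well. The 6 dendritic cell markers summed to 412 to 1026 RPKM in WT and 47.9 to 123 RPKM in DKI cultures on day 3, and to 586 to 1210 RPKM and 87.0 to 207 RPKM on day 6. The 6 macrophage markers summed to 455 to 1046 RPKM in WT and 1502 to 4122 RPKM in DKI on day 3, and to 403 to 1965 RPKM and 1440 to 4656 RPKM on day 6. Of the monocyte, neutrophil, B cell, T and NK cell and cell cycle markers, 0 were called between genotypes on either day by limma, with 2 monocyte, 1 neutrophil, 1 B cell and 1 cell cycle marker on day 3 and 1 B cell marker on day 6 at an unadjusted p under 0.05. On day 3 the monocyte markers summed to 167 to 257 RPKM in WT and 194 to 924 RPKM in DKI, and the neutrophil markers to 190.0 to 2931 RPKM and 1407 to 2654 RPKM. All 6 neutrophil markers were above 0 in DKI against WT on both days (3756 of 9740 and 3294 of 9842 over all genes), with medians of 1.66 and 0.45. All 8 cell cycle markers were above 0 on day 3, with a median of 0.24, and below 0 on day 6, with a median of -0.53. The 4 B cell markers were low, at 0.317 to 0.459 RPKM in WT and 1.25 to 7.10 RPKM in DKI on day 3, without overlap. The highest macrophage sums, 4122 and 4656 RPKM, were in DKI replicate 1, where the sterol enzymes summed to 324 RPKM on day 3 and 220.1 RPKM on day 6. DKI replicate 3 of day 6 had sterol enzymes as low, at 229 RPKM, with macrophage markers at 1683 RPKM. DKI replicate 2 of day 6, with sterol enzymes at 1062 RPKM, had macrophage markers at 1440 RPKM, cell cycle markers at 194 RPKM (104 and 16.8 RPKM in replicates 1 and 3) and 4 T and NK cell markers at 8.91 RPKM (0.946 and 0.0282 RPKM). The part of these cell states in the levels of the lipid genes was not tested.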

How the data were processed

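The authors aligned single-end reads to mm10 with Subread, counted them on RefSeq genes with featureCounts and deposited RPKM values for 18 libraries; software versions are not given in the sources used here. RPKM are not counts, so the count-based edgeR test named in the study's methods was replaced. Values were taken as log2(RPKM + 1), genes with a mean above 2 RPKM in at least 1 group were fitted with limma 3.58.1 in R 4.3.3 (lmFit, eBayes with trend), and genes were called at a Benjamini-Hochberg adjusted p under 0.05 over all genes fitted and a fold change above 1.5. Only the groups compared entered each fit. Log2 fold changes on this scale understate changes of low genes. The script was tested on simulated data.

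Depth was recovered from the steps of low values, of which 90 of 93 were whole multiples within 0.05 of a read; intervals and floors cover counting error only. Replicates are libraries of separate experiments. Deviations from the group means went together between genotypes within a replicate number. Over all genes, r was 0.686 to 0.865 on day 0, 0.163 to 0.369 on day 3 and 0.338 to 0.413 on day 6. Days 3 and 6 within a genotype also went together (0.125 to 0.743). Libraries of the same number were regarded as pairs there, from the data and not the labels, but not between day 0 and day 3. The calls reported first for each comparison nevertheless come from fits that ignored the replicate number. A term for it entered only the alternative fits described as having a replicate block.

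Members and lists were chosen with earlier results of these data known. Statistics are printed for a selection of the members called in a comparison and of those not called, not strictly by size of change. Called members without printed statistics, Hsd17b7 in WT among them, enter the counts and medians of the members.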

Additional observations from a re-analysis of the deposited data

Results flagged for a closer look

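Elovl5 was the member whose change from day 0 to day 3 differed between genotypes by the interaction test, at -1.49 on the log2 scale (SE 0.35, limma adjusted p = 0.0482). It was higher on day 3 than on day 0 in all WT libraries without overlap, whereas the DKI libraries of both days overlapped. With the replicate number as a block the adjusted p was 0.0636, and the call was lost in 18 of 21 alternatives. The explanation was not tested.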

How the results depend on the processing

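The counts of members that rose from day 0 to day 3 kept their size in WT, 27 with 24 to 29 over 15 alternatives, and 0 members fell in either genotype. In DKI the count of 19 ran from 3 to 24 with libraries or replicate numbers left out. Lower calls in DKI against WT on day 3, 2 in the fit as reported, came to 0 without the filter on low values, 1 with the replicate block and 0 to 2 with libraries left out. On day 6 the 1 lower call came to 0 without the filter, 0 with median centring, 0 with quantile normalization, 0 with the replicate block, 2 with all 18 libraries in one fit (Elovl5 and Scap; 9.95% of all genes lower) and 0 to 8 with libraries left out. The 1 lower call of the interaction from day 0 to day 3 came to 0 with a pseudocount of 0.1, 0 without the filter, 0 with median centring and 0 to 2 with libraries left out. The filter's removal raises the number of genes tested, and leaving out libraries lowers the number of samples; beyond that the cause was not tested.

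For single called members, the rises from day 0 to day 3 were kept in 393 and lost in 12 alternative values in WT, and kept in 234 and lost in 51 in DKI. The genotype calls were lost more often than kept, with 11 kept and 19 lost on day 3, 3 kept and 12 lost on day 6, and 3 kept and 18 lost for the interaction; 0 reversed. The replicate block, fitted as one term per number, gave 26 members called higher from day 0 to day 3 in WT (17.9% of all genes) and 18 in DKI (12.3%), where only 1 and 2 of 6 libraries correlated best with their own number.

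With 3 libraries a group, standard errors of the genotype difference on day 6 ran from 0.20 (Elovl1) to 0.99 (Fads2) on the log2 scale. The lowest value of any member was 0.0904 RPKM, for Scd1 in DKI replicate 1 on day 0.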

Other observations

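Fads1 and Fads2, close together on chromosome 19 and acting in turn on the same fatty acids, both rose from day 0 to day 3 in both genotypes, while the ratio between them changed. On day 0 the level of Fads1 was 12.5, 2.47 and 4.10 times that of Fads2 in WT libraries and 7.91, 1.87 and 2.67 times in DKI. On day 3 the ratio was 0.582, 0.723 and 0.570 in WT and 3.42, 1.44 and 0.729 in DKI, without overlap, though only by 0.723 against 0.729. On day 6 it was 1.09, 0.569 and 0.685 in WT and 4.61, 0.711 and 5.31 in DKI, where replicate 2 lay within the WT range. These ratios were singled out after the values were seen, and the difference was not tested.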
